A study of Mus musculus with 10 samples.

Results

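The circular RNAs (circRNAs) of the maturing mouse retina were compared with those of the perinatal retina, with ages pooled on either side. The late side held 4 libraries, those of postnatal days 14 and 30 (P14 and P30), and the early side held 4, those of embryonic day 18.5 (E18.5) and postnatal day 1 (P1), with 2 libraries per age. They were chosen by age alone, as 8 of the 10 retinal libraries of a series of 5 ages, and the P7 libraries were left out. All were of C57BL/6 retinae without treatment or genetic change named in the labels, and were made from total RNA depleted of ribosomal RNA. The second E18.5 column carries the number 3, which no E18.5 label has, so it is called the unnumbered E18.5 library. Of the 9029 circRNAs in the table, 5991 were above 0 in at least 1 of the 8 libraries, 812 named by a database ID and 5179 by their position.

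A circRNA forms when the spliceosome joins the donor site of an exon to an acceptor that lies upstream in the same transcript. Having no free ends and no poly(A) tail, it resists exonucleases, is kept by ribosomal depletion and is known to accumulate in neural tissue. Between birth and the weeks after eye opening, progenitors of the mouse retina leave the cell cycle, photoreceptors grow outer segments and synapses form. The table holds circRNAs only and pairs none of them with a gene, so the markers of retinal cell types could not be read from it, and no role is given to a circRNA. In whole retina, fewer cells of a type and less circRNA per cell cannot be told apart.

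The values are estimated counts without normalization, in steps of 0.5, and the smallest value above 0 is 2. A circRNA listed at 0 was therefore below this minimum or not called. Total circRNA counts ran from 11773.5 to 28658 in the late libraries and from 6606.5 to 9092 in the early ones, without overlap. Read depth as a whole cannot be had from these counts, so deeper sequencing and more circRNA in the older retina cannot be told apart. Levels of single circRNAs are given as CPM, counts scaled to a common total over all listed circRNAs of a library. Fold changes come from edgeR's quasi-likelihood test after TMM scaling (trimmed mean of M-values), which sets the tested circRNAs against one another. The 2 scales differ where many circRNAs gain counts at once, so a fold change is not the ratio of the CPM means. The labels do not say which animals a library came from, so p-values rest on the spread among the 8 libraries, which may be partly technical, and the difference between the ages of a side counts as part of that spread.

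More circRNAs were listed in the late retina. The late libraries listed 1397, 1814, 2800 and 2784 circRNAs (P14 replicates 1 and 3, then P30 replicates 2 and 3), and the early libraries listed 833, 855, 1121 and 1142 (E18.5 replicate 1, the unnumbered E18.5 library, then P1 replicates 1 and 2). Each late library lay above each early one. The means were 2199 ± 706 in late and 988 ± 166 in early retina (SD, n = 4 each), a ratio of 2.23 (exact permutation test, two-sided, p = 0.0286, the smallest that 4 against 4 libraries can give).

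The difference was smaller once totals were made equal. At the expected number of circRNAs with at least 2 counts when each library is thinned to 6569 counts, late libraries held 1078 ± 38.0 and early libraries 902 ± 85.5 (SD, n = 4 each; ratio 1.19, exact permutation p = 0.0286). Counting circRNAs with at least 5 counts at the same totals turned the direction round, with 307 ± 27.7 in late and 367 ± 11.3 in early libraries (SD, n = 4 each, exact permutation p = 0.0286). The minimum of 2 had been applied before thinning, so the 6569 counts of a thinned late library include circRNAs left at 1 count, while E18.5 replicate 1 has none, which lowers the late numbers. With the counts left at 2 or more made equal instead, a setting added after the data were seen, at least 2 counts were held by 1159 ± 85.2 circRNAs in late and 908 ± 91.0 in early libraries, and at least 5 counts by 339.6 ± 14.2 in late and 371 ± 9.64 in early libraries (SD, n = 4 each, exact permutation p = 0.0286 for both). The size of the difference at 5 counts or more thus depends on how totals are made equal, and how the minimum acted on the reads before deposit was not tested. In late retina the top 10 circRNAs of each library took 15.8% ± 2.36 of all counts, against 17.3% ± 0.892 in early retina (SD, n = 4 each), a difference that did not exceed the spread (exact permutation p = 0.343). For the single most abundant circRNA the shares were 3.25% to 6.40% in late and 6.60% to 8.05% in early libraries, and for the 50 most abundant 26.6% to 33.0% and 33.3% to 37.6% in the same order (exact permutation p = 0.0286 for both).

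**Figure D1:**
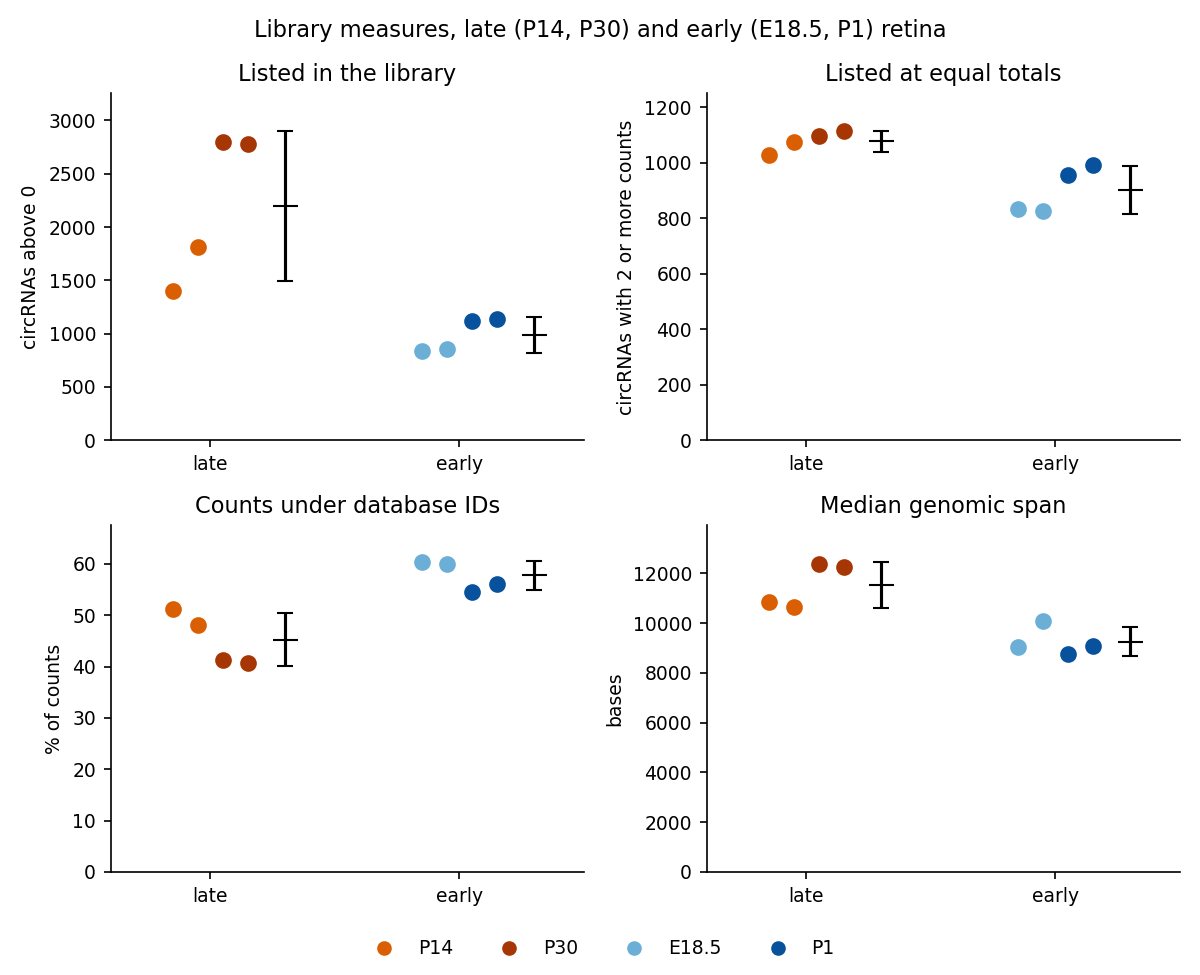
Measures of the 4 late libraries (orange, P14 and P30) and the 4 early libraries (blue, E18.5 and P1): circRNAs above 0, circRNAs with at least 2 counts at equal totals, the percentage of counts under database IDs, and the median genomic span in bases. Points are libraries and bars are the mean ± SD, and late and early points do not overlap in any of the 4 panels.

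Most circRNAs were listed on 1 side only. Of the 5991, 3703 (61.8%) were above 0 in late libraries alone, 926 (15.5%) in early libraries alone and 1362 in both. Those of the late side alone held 33.4% of the late counts, and those of the early side alone held 13.3% of the early counts. They were mostly rare and seen once: 2654 of the 3703 and 778 of the 926 stood in a single library, and the median of their highest counts was 4 and 3. Listed in all 4 late libraries and in no early one were 152 circRNAs, which held 8.67% of the late counts. The converse held for 11, which had 0.762% of the early counts. The highest of these 11 lay on chromosome 6, minus strand, between 47501731 and 47527666 (mm9), and had 4, 11, 7 and 17.5 counts in the early libraries. It was chosen here after the values were seen. Since the late totals were larger, these numbers carry the difference in totals with them.

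The circRNAs listed in the late libraries were also less often under a database ID and spanned more of the genome. Database IDs took 51.2%, 48.1%, 41.2% and 40.6% of the counts of the late libraries, against 60.3%, 60.1%, 54.6% and 56.1% in the early libraries. The difference of the means was −12.5 percentage points (exact permutation p = 0.0286). Across the 8 libraries this share fell in order as the total circRNA count of a library rose. Neither it nor the span was taken at equal totals, so age and total count cannot be told apart for these measures. The span is the genomic distance between the joined splice sites, introns included, and is known only for circRNAs given by position. Its median over listed circRNAs was 10851.5, 10647, 12392 and 12237.5 bases in the late libraries, against 9039, 10098, 8776 and 9068 bases in the early libraries (exact permutation p = 0.0286). Among circRNAs with at least 5 counts the medians overlapped between the sides (exact permutation p = 0.0571). By counts, spans of 50000 bases or more took 7.28% ± 1.46 in late and 4.38% ± 0.520 in early libraries (SD, n = 4 each; exact permutation p = 0.0286, adjusted p = 0.0571 over 4 classes of span). Spans under 1000 bases took 6.20% ± 1.51 and 9.10% ± 0.778 in the same order (SD, n = 4 each; exact permutation p = 0.0286, adjusted p = 0.0571). The other 2 classes overlapped between the sides, and no class passed the adjustment.

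Among single circRNAs, 188 had enough counts to be tested, 120 with database IDs and 68 by position. They held 40.8% to 53.4% of the counts of a library. Of these, 87 (46.3%) differed between late and early retina at an adjusted p under 0.05 (edgeR's quasi-likelihood test, Benjamini-Hochberg), 49 (26.1%) higher in late and 38 (20.2%) lower. At an unadjusted p under 0.05 there were 99. The low-count filter took the side as group, so a circRNA could be kept by the late or the early libraries alone. Such a circRNA could be called only as higher on that side. How many of the 87 were of this kind was not counted, and 46.3% is a share of the filtered circRNAs. With no low-count filter, 208 of 5991 circRNAs were called, 171 higher in late and 37 lower. The median log2 fold change of all 188 was 0.13, and the split between rises and falls among the 188 depended on the scaling. With totals of all listed counts 36 rose and 58 fell, with totals of the tested circRNAs 41 rose and 45 fell, and with no scaling, a setting added after the data were seen, 77 rose and 13 fell. The same call was made under all 5 scalings for 36 of the 49 rises and for 13 of the 38 falls.

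The 49 rises and 38 falls made up a large part of the libraries in which they were high. The 49 held 19.8% to 22.9% of the counts of the late libraries and 4.84% to 5.50% in the early ones. The 38 held 6.42% to 9.63% of the late and 23.0% to 27.3% of the early counts. Both groups were defined by this comparison, so these shares describe it and test nothing. Of the rises, 8 were listed at 0 in all early libraries, while log2 fold changes of the other 41 ran from 0.99 to 6.14 around a median of 2.52. The falls were all above 0 on both sides and had a median of −1.83, from −4.59 to −0.48. Of the rises 25 had database IDs and 24 positions, on 12 chromosomes and with a median span of 14374.5 bases. Of the falls 29 had database IDs and 9 positions, with a median span of 6471 bases, and the median over the tested circRNAs given by position was 9458 bases.

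Read by library, the rises were separated more often than the falls on the counts as listed. In CPM all 4 late libraries lay above all 4 early ones for 40 circRNAs (21.3% of those tested) and below them for 56 (29.8%). In counts as listed, which carry the larger late totals, the numbers were 73 (38.8%) above and 19 (10.1%) below. Of the 49 rises, 40 did not overlap in CPM and 48 in counts. Of the 38 falls, 37 did not overlap in CPM and 19 in counts. For the other 19 falls, the late libraries were thus not all lower in listed counts.

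**Figure D2:**
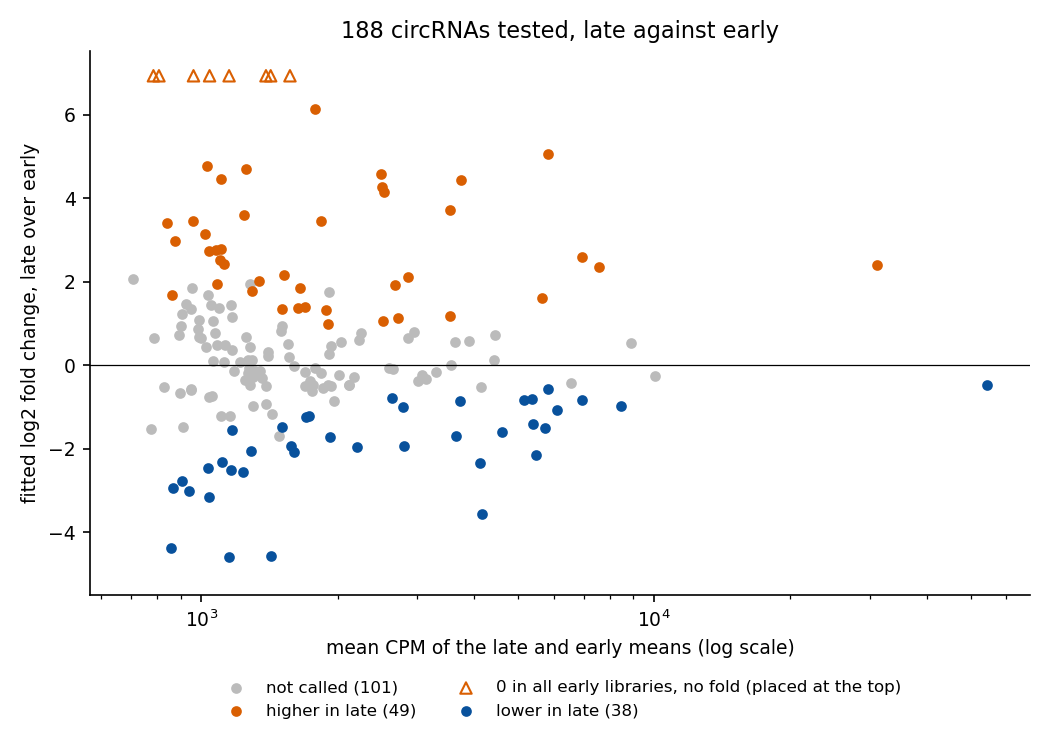
Fitted log2 fold change, late over early, against the mean CPM of the late and early means (log axis) for the 188 circRNAs tested. The 49 higher in late are orange, the 38 lower in late are blue and the 101 not called are grey. Open triangles mark the 8 circRNAs listed at 0 in all early libraries, for which no fold is given and whose height is arbitrary.

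The most abundant circRNA that rose was mmu_circ_0001878. It had 63999.7 and 60506 CPM at P14 and 37005 and 32539 CPM at P30, against 14001 and 14101 CPM at E18.5 and 12538 and 13719 CPM at P1. All late libraries exceeded all early ones, and within the late side it stood lower at P30 than at P14. The means were 48512 ± 16034 CPM in late and 13589.9 ± 719 CPM in early retina (SD, n = 4 each), with a log2 fold change of 2.40 (SE 0.177, adjusted p = 3.3e-06 from edgeR). Between P30 and P14 the log2 fold change was −0.62 (adjusted p = 0.0183 from edgeR).

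Other abundant circRNAs rose by similar amounts. Mmu_circ_0000595 had 14694, 7567, 11973 and 12422 CPM in the late libraries, against 4768, 2947, 2585 and 3372 CPM in the early ones (log2 fold change 2.36, SE 0.284, adjusted p = 8.26e-05 from edgeR). Mmu_circ_0001692 had 11636, 9415, 11528 and 11567 CPM in the late libraries, against 3859.8, 2526, 1759.8 and 3023 CPM in the early ones (log2 fold change 2.58, SE 0.268, adjusted p = 3.15e-05 from edgeR). Neither was called between P30 and P14 (adjusted p = 0.579 and 0.52 from edgeR). Mmu_circ_0000057 had 8154, 6482, 7009.6 and 8706 CPM in the late libraries, against 3859.8, 3859, 3685 and 3546 CPM in the early ones (log2 fold change 1.61, SE 0.223, adjusted p = 0.00015 from edgeR). The late and early libraries did not overlap for any of the 4.

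On chromosome 4, a minus-strand circRNA between 102732223 and 102745448 (mm9) was low in the early libraries. It had 7814, 4575, 15139.9 and 17273 CPM in the late libraries, against 833, 0, 439.9 and 639 CPM in the early ones, where the largest count was 5.5. Its log2 fold change was 5.07 (SE 0.65, adjusted p = 0.000101 from edgeR). It passed the low-count filter through the late side alone, so it could be called only as a rise. P30 lay above P14 by 1.63 on the log2 scale (edgeR, adjusted p = 0.0325).

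The 8 circRNAs called higher and listed at 0 in all early libraries were all given by position. Of the 152 listed in all 4 late libraries and in no early one, 125 were given by position and 27 had database IDs. Some of the 125 lay on minus strands, so the strand and naming of the 8 are not traits of the wider list. On chromosome 6, the circRNA from 67027242 to 67066761 had 2760.4, 1672, 4288 and 3838 CPM in the late libraries, and that from 125660574 to 125662465 had 2208, 3109, 2526 and 3542 CPM. A further one on chromosome 6, from 125740259 to 125765617, had a late mean of 2086 ± 605 CPM (SD, n = 4). The other 5 lay on chromosome 2 from 14902933 to 14906066, on chromosome 14 from 22445941 to 22483970 and from 52740148 to 52746059, on chromosome 15 from 39398489 to 39418331, and on chromosome 10 from 25161379 to 25180702 (all 8 in mm9, on plus strands). Their late means ran from 1568 to 2779 CPM. They passed the low-count filter through the late side alone, so a call was to be had in 1 direction only, and their values are given as a description, with no p and no fold against a side listed at 0.

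Some circRNAs with neighbouring database numbers rose together, a pattern chosen after the values were seen. Mmu_circ_0001754, mmu_circ_0001755, mmu_circ_0001756 and mmu_circ_0001757 had log2 fold changes of 3.46, 2.11, 3.42 and 3.71 (edgeR, adjusted p = 0.00146, 0.00199, 0.0104 and 0.000503). Mmu_circ_0001757, the most abundant of them in late retina, had 8918, 10059.8, 2829 and 3786 CPM in the late libraries, against 0, 1614, 659.9 and 407 CPM in the early ones. The files give no position for a database ID, so whether they share a transcript was not tested. The early libraries alone would not have kept mmu_circ_0001757 in the low-count filter, so its p-value is not free of that choice.

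The most abundant circRNA on average, mmu_circ_0000723, fell relative to the others. It had 43572 and 39037 CPM at P14 and 31187 and 27148 CPM at P30, against 80527 and 78294 CPM at E18.5 and 69127 and 66035 CPM at P1. All late libraries lay below all early ones in CPM. The log2 fold change after TMM scaling was −0.48 (SE 0.115, adjusted p = 0.00541 from edgeR), and with no scaling it was 0.31, the opposite direction. Its listed counts were 513, 665.5, 876.5 and 778 in the late libraries, against 532, 558, 628.5 and 568 in the early ones. They overlapped, so the lower CPM stood beside counts that were not lower.

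Other abundant falls had changes of similar size. Mmu_circ_0000377 had 4247, 3578, 5391 and 3664 CPM in the late libraries, against 10747, 13329.6, 15068 and 11568 CPM in the early ones (log2 fold change −0.98, SE 0.233, adjusted p = 0.00534 from edgeR). The fitted changes of mmu_circ_0000372, mmu_circ_0001624 and mmu_circ_0001283 were −0.84, −1.07 and −0.57 (adjusted p = 0.0184, 0.0024 and 0.0384 from edgeR), without overlap in CPM. With no scaling mmu_circ_0000377, mmu_circ_0000372 and mmu_circ_0001624 were not called, at −0.13, −0.10 and −0.28, and mmu_circ_0001283 turned to 0.26. The call of mmu_circ_0001283 was also lost without P14 replicate 3, P30 replicate 2, the unnumbered E18.5 library or P1 replicate 2 (adjusted p between 0.063 and 0.099 from edgeR), with RLE factors (−0.41, adjusted p = 0.126), with DESeq2 (−0.41, adjusted p = 0.0939) and with thinned counts (−0.51, adjusted p = 0.15). Leaving out P1 replicate 2 also ended the call of mmu_circ_0000372 (edgeR, adjusted p = 0.056). With no low-count filter none of these 4, nor mmu_circ_0000723, was called (adjusted p between 0.0869 and 0.295 from edgeR).

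Larger falls were seen among circRNAs of moderate level. Mmu_circ_0001471 had 1104, 587, 196 and 122 CPM in the late libraries, against 7114, 8979.9, 8304 and 6917 CPM in the early ones (log2 fold change −3.56, SE 0.459, adjusted p = 0.000101 from edgeR). Mmu_circ_0001335 had 1614, 1144, 267 and 942 CPM in the late libraries, against 8401, 7717, 5829 and 7092 CPM in the early ones (log2 fold change −2.34, SE 0.388, adjusted p = 0.000503 from edgeR). Mmu_circ_0000713 was listed at 0 in a P14 and a P30 library and had 147 and 160.1 CPM in the others, against 1438, 3788, 2419.7 and 3429.6 CPM in the early libraries (log2 fold change −4.57, SE 0.746, adjusted p = 0.000503 from edgeR). In all 3 the late and early libraries stood apart, and they stood apart in listed counts too. Mmu_circ_0001798 and mmu_circ_0000884 fell by 2.08 and 1.96 on the log2 scale (adjusted p = 0.00199 and 0.00138 from edgeR). Both, and mmu_circ_0000713, passed the low-count filter through the early side alone, so each could be called only as a fall. Mmu_circ_0001471 and mmu_circ_0001335 fell short of the filter's minimum in some late libraries, so the late side alone would not have kept them. Their p-values are thus not free of that limit either. Mmu_circ_0001472 and mmu_circ_0001478, whose numbers lie near that of mmu_circ_0001471, had log2 fold changes of −3.16 and −3.03 (adjusted p = 0.0157 and 0.00687 from edgeR).

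**Figure D3:**
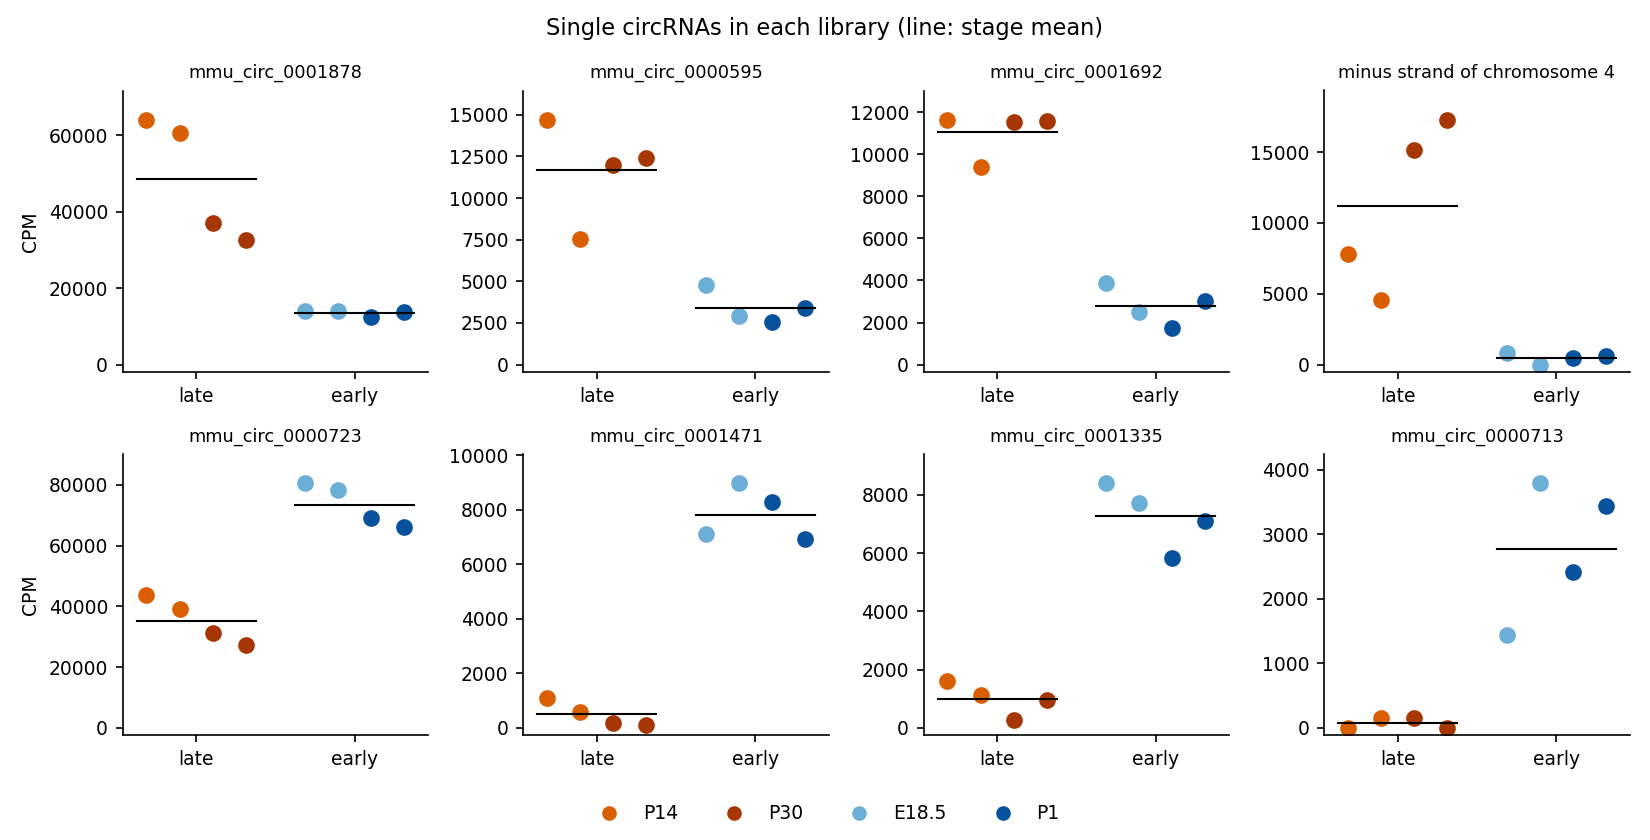
CPM of 8 circRNAs in each library, with P14 and P30 in orange at the left of each panel and E18.5 and P1 in blue at the right; lines are the means of a side. The upper row holds 4 circRNAs higher in late retina and the lower row 4 lower in late retina, and the sides do not overlap in any panel.

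Other abundant circRNAs were not called. Mmu_circ_0001350 had 8773 ± 3181 CPM in late and 8967 ± 797 CPM in early retina (SD, n = 4 each; log2 fold change 0.52, adjusted p = 0.0935 from edgeR). Mmu_circ_0001311 had a log2 fold change of −0.26 and mmu_circ_0001797 one of −0.43 (adjusted p = 0.395 and 0.314 from edgeR). The libraries of the 2 sides overlapped for each of the 3. None of the 3 was stable to the processing. Mmu_circ_0001350 was called higher in late with RLE factors (0.68, adjusted p = 0.0296 from edgeR), DESeq2 (0.68, adjusted p = 0.0179), age as a factor over the 8 libraries (0.49, adjusted p = 0.0212), without P30 replicate 2 (0.67, adjusted p = 0.0362) and with no scaling (1.26, adjusted p = 0.00304), and turned to −0.04 with totals of all listed circRNAs. Mmu_circ_0001311 was called lower with totals of the tested circRNAs (−0.61, adjusted p = 0.0472 from edgeR) and of all listed circRNAs (−0.82, adjusted p = 0.0198), and turned to 0.51 with no scaling. Mmu_circ_0001797 was called lower with totals of all listed circRNAs (−0.99, adjusted p = 0.0363 from edgeR) and with age as a factor over 10 libraries (−0.58, adjusted p = 0.0332), and turned to 0.25 with no scaling. One call rested on an uneven side, a case chosen after the values were seen. Mmu_circ_0000205 had 1911, 1701, 623 and 1466 CPM in the late libraries, against 14607, 12979, 495 and 9998 CPM in the early ones, where P1 replicate 1 lay below every late library. Its log2 fold change was −2.15 (SE 0.673, adjusted p = 0.02 from edgeR).

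The changes were compared between pairs of ages that share no library. P14 against E18.5 called 65 of the 188 circRNAs (34.6%), and P30 against P1 called 77 (41%). Of 188 log2 fold changes, 150 (79.8%) had the same sign in both, and across circRNAs, which are not independent replicates, Pearson's r was 0.778. With the ages paired the other way, P30 against E18.5 and P14 against P1, 156 (83.0%) had the same sign and r was 0.770. TMM factors and the spread were estimated over all 8 libraries, so the 2 comparisons were not fitted apart. The 188 were also kept by a filter on the late and early sides of all 8 libraries. A circRNA that passed by being high throughout 1 side tends to the same sign in both, so the shared signs are no independent test. Called in both were 51 circRNAs, 50 of them in the same direction. The exception was mmu_circ_0000629, at −1.24 for P14 against E18.5 and 1.06 for P30 against P1 (adjusted p = 0.0292 and 0.0308 from edgeR). It had 1189 and 2552 CPM at P14 and 4465 and 6002 CPM at P30, against 5828 and 7507 CPM at E18.5 and 4179 and 3662 CPM at P1. The pooled sides overlapped, and it was not called between them.

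**Figure D4:**
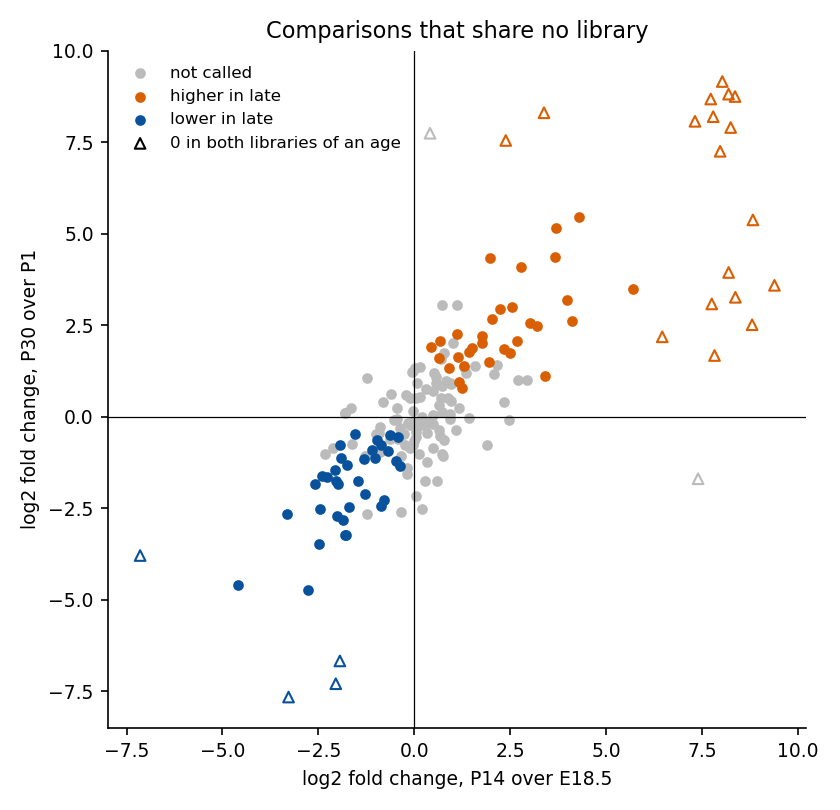
Fitted log2 fold changes of the 188 circRNAs, P14 over E18.5 on the horizontal axis and P30 over P1 on the vertical axis, coloured by the call of late against early. Of the 188, 150 lie in the quadrants where both have the same sign, and open triangles mark circRNAs at 0 in both libraries of an age, whose fitted value is no measured fold.

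Fewer circRNAs were called between the ages of a side than between the sides. The tested circRNAs were kept by a filter on the sides rather than the ages, and the steps in age were unequal. The numbers of calls thus do not stand on equal terms. P30 against P14 gave 9 calls (4.79%; 33 at an unadjusted p under 0.05), and P1 against E18.5 gave 0 (0%; 16 at an unadjusted p under 0.05, edgeR in both cases). Of the 49 rises of late against early, 3 were higher and 1 was lower at P30 than at P14. Of the 38 falls 1 was lower, and the other 4 calls, all higher at P30, were of circRNAs not called between the sides. Mmu_circ_0001124 and mmu_circ_0001125 were among these 4 with the same log2 fold change of 2.02, and the counts behind the 2 IDs were identical. A difference between P30 and P14 that was not called is not shown to be absent, since each age has 2 libraries.

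CircRNAs that share a back-splice site are products in which 1 splice site is joined to several partners. Among the 68 tested circRNAs given by position, 12 pairs at 5 sites shared a start or an end on the same strand. Both members changed in the same direction in 5 pairs and in opposite directions in 1, a single member was called in 4 and neither in 2. Values from 1 site are not independent of each other.

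At 3 sites the members moved together. On the plus strand of chromosome 14, 3 circRNAs start at 52740148 and end at 52740796, 52746059 and 52753534, and all rose. The shortest had 4119, 3373, 3416 and 3158 CPM in the late libraries, against 0, 0, 0 and 233 CPM in the early ones. The longest had 5266, 5689.8, 4127 and 3838 CPM in the late libraries, against 0, 0, 0 and 1046 CPM in the early ones. P1 replicate 2 was the only early library that listed any of the 3, and without it all 3 stood at 0 on the early side. All 3 passed the low-count filter through the late side alone, so a call was to be had in 1 direction only. Their values are given as a description, with no p and no fold. On the plus strand of chromosome 10, the 2 circRNAs that start at 25161379 rose. The one that ends at 25163760 had 6498, 5514, 8699.7 and 7310.3 CPM in the late libraries, against 908, 421, 330.0 and 349 CPM in the early ones (log2 fold change 4.44, SE 0.378, adjusted p = 7.89e-06 from edgeR). Both circRNAs passed the low-count filter through the late side alone, so each could be called only as a rise. On the plus strand of chromosome 4, both circRNAs that start at 8678471 fell. The longer, to 8712910, had 2591, 1672, 1299 and 1274 CPM in the late libraries, against 9082, 7437, 6434 and 7092 CPM in the early ones (log2 fold change −1.60, SE 0.265, adjusted p = 0.000503 from edgeR). The shorter, to 8680295, had a log2 fold change of −1.95 (SE 0.329, adjusted p = 0.00055 from edgeR). Its late libraries alone would not have kept it in the low-count filter, so this p-value is not free of that choice.

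At a site on the minus strand of chromosome 2 the members moved apart. There 4 tested circRNAs share the end at 37502805 (mm9), which on this strand is the acceptor side, and start at 37496371, 37490944, 37479693 and 37436193, with spans of 6435, 11862, 23113 and 66613 bases. The longest rose, by a log2 fold change of 1.36 (SE 0.421, adjusted p = 0.0194 from edgeR), and the shortest had a log2 fold change of −0.79 (SE 0.271, adjusted p = 0.0308 from edgeR). The other 2 were not called, at −0.17 and −0.32 (adjusted p = 0.685 and 0.423 from edgeR). The call of the longest was lost without P30 replicate 2, P30 replicate 3 or the unnumbered E18.5 library, and that of the shortest without P14 replicate 1, E18.5 replicate 1 or P1 replicate 2 (adjusted p between 0.05 and 0.069 from edgeR). The longest also lost its call with totals of the tested circRNAs (1.00, adjusted p = 0.0715 from edgeR), totals of all listed circRNAs (0.74, adjusted p = 0.136) and no low-count filter (1.59, adjusted p = 0.0588). The shortest lost its call with RLE factors (−0.62, adjusted p = 0.085 from edgeR), DESeq2 (−0.62, adjusted p = 0.087) and no low-count filter (−0.56, adjusted p = 0.273), and turned to 0.08 with no scaling.

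Shares of the counts of this site do not depend on the scaling of libraries. Of the counts of the 4 circRNAs, which were 602 in the late and 354.5 in the early libraries, the longest held 22.2%, 22.7%, 33.0% and 31.9% in the late libraries, against 6.30%, 8.81%, 12.3% and 11.8% in the early ones. The shortest held 16.0%, 27.6%, 21.5% and 19.7% in the late libraries, against 42.5%, 32.1%, 32.0% and 32.4% in the early ones. Late and early libraries did not overlap for either. The differences were 17.7 and −13.5 percentage points (exact permutation p = 0.0286 for both, adjusted p = 0.0667 over 7 shares at the 4 sites where shares could be taken), so neither passed the adjustment. The 2 circRNAs of middle length held 19.1% and 32.3% in late and 19.3% and 36.2% in early retina (exact permutation p = 0.943 and 0.543). The longest and the shortest were called in opposite directions before their shares were taken, so the shares are not independent of these calls.

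**Figure D5:**
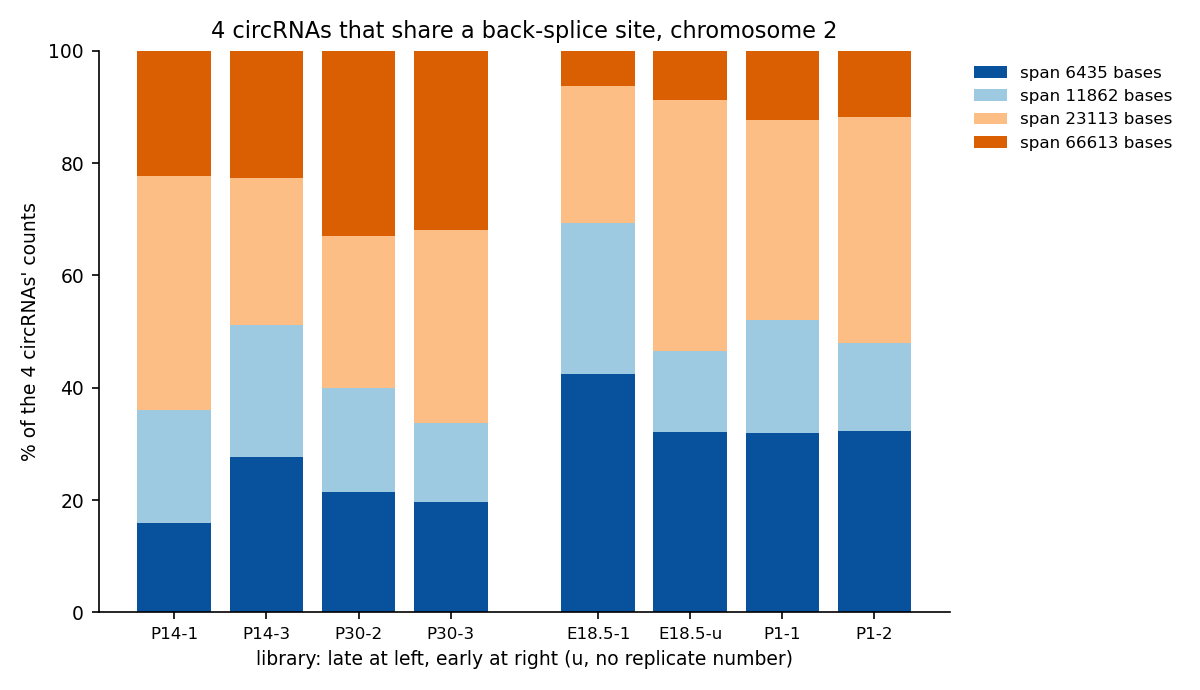
Percentage of the counts of 4 circRNAs that share a back-splice site on chromosome 2 in each library, late at the left and early at the right, stacked by genomic span. The circRNA of 66613 bases (dark orange) held 22.2% to 33.0% in late and 6.30% to 12.3% in early libraries, and that of 6435 bases (dark blue) 16.0% to 27.6% in late and 32.0% to 42.5% in early libraries.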

How the data were processed

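Retinal RNA of C57BL/6 mice was sequenced at 5 ages, with 2 libraries per age. The authors deposited 1 table of estimated counts of circRNAs, without normalization. Trimmomatic and the genome build mm9 appear in the submitters' processing notes. The circRNA caller, the aligner and the reason for steps of 0.5 and a minimum of 2, not given in the sources used here, could not be checked. Starts in the names count from 0, since of 8054 names 159 starts matched a GRCm38 exon start after adding 1 and 1 did so as printed, so positions are given from 1. Too few matched to place circRNAs in genes, and no position was converted. 1 column could not be matched to a single sample and was used as an E18.5 library without a number.

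Values were rounded to integers, low circRNAs were removed by filterByExpr with the side as group (minimum count 10, minimum total 15), and the rest were scaled by TMM (factors 0.864 to 1.17) and tested with edgeR 4.0.16 (glmQLFit, glmQLFTest) in R 4.3.3, late against early, with 6 residual degrees of freedom and a common dispersion of 0.141. A call is a Benjamini-Hochberg adjusted p under 0.05. Single ages were compared in a fit of the 4 ages, with 4 residual degrees of freedom. Measures per library were compared by exact permutation over 70 splits, two-sided. Numbers at equal totals are expected values at 6569 counts. CPM was taken over all listed counts. Python 3.11.15, numpy 2.4.6, pandas 2.3.3, scipy 1.17.1 and matplotlib 3.10.9 were used.

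The test was tried on counts simulated from the observed means and library totals, where 199 circRNAs passed the filter. It called 47.8% of 23 with a true 2-fold change, 100% of 15 with a 4-fold change and 100% of 35 with an 8-fold change, each with the true sign, and 2.38% of 126 without a change. Every simulated circRNA had the common dispersion, the ages of a side did not differ, and rises and falls were equally likely. The data need not meet these settings, so the rates may not hold for them.

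The named circRNAs were the 10 largest called rises and falls with a mean of at least 10 counts and no overlap in CPM, the 10 most abundant, the 5 most abundant rises and falls above 0 in all 8 libraries, and up to 3 pairs per class of shared back-splice site, 41 in all, of which some are given by counts and ranges only. The members, the rule and the tests were chosen with earlier results of these data known. Alternatives were other scalings, filters, DESeq2 1.42.0, age as a factor, a replicate block, a fold change threshold, unrounded and thinned counts, identical circRNAs merged and each library left out. No scaling, equal totals above the minimum of 2, and the variations of the shares at shared sites, were added after the data were seen.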

Additional observations from a re-analysis of the deposited data

Results flagged for a closer look

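In 9 of 100 groups of 4 libraries checked, 1 library stood far from the other 3 of its side. The limit used is one that about 1 in 20 groups of independent, normally distributed values would pass. These values are not of that kind, since each side pools 2 ages and some groups share a back-splice site, so that rate does not apply. Among the late libraries, P14 replicate 1 stood high for mmu_circ_0000372 at 6200.4 CPM and for the chromosome 14 circRNA from 52740148 to 52746059 at 2845 CPM, and low for the chromosome 2 circRNA from 37496371 to 37502805 at 977 CPM. P14 replicate 3 stood low for mmu_circ_0001692 at 9415 CPM. Among the early libraries, E18.5 replicate 1 stood high for the chromosome 10 circRNA from 25161379 to 25163760 at 908 CPM and low for mmu_circ_0001797 at 4617 CPM. P1 replicate 2 stood high for the chromosome 14 circRNAs that start at 52740148 and end at 52740796 and 52753534, at 233 and 1046 CPM, where the other 3 early libraries were listed at 0, and low for mmu_circ_0001624 at 6743 CPM.

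In the P7 libraries, which are on neither side, 374 circRNAs were listed that none of the 8 libraries held. Of these, 3 had at least 10 counts in a P7 library and 6 stood in both P7 libraries.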

How the results depend on the processing

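Calls of late against early numbered 87 and lay between 76 and 87 with 1 library left out, rises between 44 and 51 and falls between 31 and 37. With no low-count filter, which tested 5991 circRNAs, 208 were called and 171 rose, and 63 of the calls were shared. A filter of 10 counts or more in each library of a side gave 82 rises. With a log2 fold change threshold of 1, 51 were called and 16 fell. With totals of all listed circRNAs 58 fell, and with no scaling 77 rose and 13 fell. RLE factors gave 92 calls and DESeq2 94, and the medians of all log2 fold changes ran from −0.45 with totals of all listed circRNAs to 0.98 with no scaling. Where not named, the cause of a change was not tested.

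A replicate block, fitted to the numbered libraries alone, left 37 calls, 30 higher and 7 lower, all among the 87, with 3 residual degrees of freedom. The correlations of deviations between libraries of the same number ran from −0.207 to 0.031. With 2 libraries per age, the deviations within an age are equal and opposite. These correlations therefore cannot show whether the numbers pair the libraries. The block ended, among others, the calls of mmu_circ_0000723, mmu_circ_0000377 and mmu_circ_0000884 (adjusted p = 0.161, 0.145 and 0.0988 from edgeR).

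At least 5 counts at equal totals gave −60.0 circRNAs, late minus early, and −31.5 with the counts left at 2 or more made equal. The share of the single most abundant circRNA differed by −2.50 and that of the 50 most abundant by −6.21 percentage points, and the median span with at least 5 counts by 2549 bases. With 1 library left out, the difference in listed circRNAs ran from 1011 to 1478, that at equal totals from 150.1 to 206, and that of the database ID share from −14.5 to −10.9 percentage points, with exact p-values of 0.0286 or 0.0571 at 3 against 4 libraries. By span, the differences ran from −3.41 to −2.30, from −4.91 to −2.87, from 2.69 to 4.93 and from 2.27 to 3.37 percentage points from the shortest class to the longest, and all 4 reached an adjusted p of 0.0286 (exact permutation) without P14 replicate 3.

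With no scaling, directions turned for mmu_circ_0000723 (0.31), mmu_circ_0001311 (0.51), mmu_circ_0001797 (0.25), mmu_circ_0001283 (0.26) and the chromosome 2 circRNAs that start at 37496371 (0.081), 37490944 (0.67) and 37479693 (0.51). That at 37490944 also turned with RLE factors (0.0024), no low-count filter (0.072) and DESeq2 (0.0063), and its share of the site, −0.18 percentage points, ran from −1.78 to 2.32 with 1 library left out. Mmu_circ_0001350 turned to −0.042 with totals of all listed circRNAs and was called higher under 5 alternatives (0.49 to 1.26, adjusted p from 0.00304 to 0.0362, edgeR or DESeq2), while mmu_circ_0001311 and mmu_circ_0001797 were each called lower under 2 (−0.99 to −0.58, adjusted p from 0.0198 to 0.0472 from edgeR). At this depth a 2-fold change was missed about as often as it was called in the simulation.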

Other observations

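The P7 libraries were on neither side of the comparison, and their values are given as a description. Of the 49 circRNAs higher in late retina, 36 had a mean P7 CPM between the late and early means, 5 lay beyond the late mean and 8 beyond the early mean, and 31 were nearer to the early mean. Of the 38 lower in late retina, 33 lay between the means, and 21 were nearer to the early mean. Mmu_circ_0001878 had 32671 and 27404 CPM at P7, between the sides. Mmu_circ_0000723 had 70752 and 66523 CPM, within the range of the early libraries. On chromosome 14, the circRNA from 52740148 to 52753534 (mm9) had 5931 and 5656 CPM at P7, which is within or above its late values. The chromosome 6 circRNA from 67027242 to 67066761 was listed at 0 in both P7 libraries.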
